A study of Mus musculus with 6 samples.

Results

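MET, RON, and the TAM receptors are receptor tyrosine kinases, and 9 genes were followed here: the receptors Met, Mst1r, Axl, Tyro3, and Mertk and the ligands Hgf, Mst1, Gas6, and Pros1. They were taken by membership of these families, and all 9 are among the 26167 genes of the expression tables. The libraries came from 3 Sora-treated and 3 control tumors, 1 per tumor, and the comparison is between these groups. Sora (sorafenib) inhibits several kinases, among them RAF, VEGFR, PDGFR, KIT, and FLT3. The tumors were grown from Hepa1-6, a hepatoma line of the mouse, which the sample labels spell Hep1-6 tumor tissue. According to the methods, female C57BL/6J mice aged 6 to 8 weeks carried tumors from cells placed under the skin. The treated group was then given Sora ip at 10 mg/kg 4 times, on day 9 and again on days 11, 13, and 15. The labels call the other group control and name no vehicle, and the day on which the sequenced tumors were taken is not given in the sources used here. The tumors therefore grew outside the liver, from 1 cell line, in mice with an intact immune system, and the RNA came from whole tumor tissue. Control tumors are numbered 1, 3, and 4 and Sora-treated tumors 2, 3, and 4, as in the labels. The labels do not say whether each tumor came from its own mouse, so the p-values measure only the spread between these tumors.

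MET, a receptor of epithelial cells and hepatocytes, binds hepatocyte growth factor (HGF), which fibroblasts and other stromal cells secrete. RON, encoded by Mst1r, is the relative of MET that binds macrophage-stimulating protein (MSP), encoded by Mst1 and made mainly by hepatocytes. Both ligands are secreted as inactive precursors and are cut by serine proteases. In the liver, MET signaling is known for its part in growth and regeneration, and in hepatocellular carcinoma it is studied as a way around kinase inhibitors. TYRO3, AXL, and MERTK, the TAM receptors, bind GAS6 and protein S (PROS1), vitamin K dependent proteins that bridge the receptors to phosphatidylserine on dying cells. MERTK is a receptor of macrophages that clear apoptotic cells, whereas AXL is found on many tumor and stromal cells. Signals of these receptors pass through shared adaptors to the RAS-MAPK and PI3K-AKT pathways. The libraries measured RNA, and neither receptor protein nor its phosphorylation was measured here.

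Of the 9 genes, Met was up-regulated and Mertk was down-regulated in the Sora-treated tumors, each by an adjusted p under 0.05 across all 16513 genes tested (edgeR). None of the 4 ligands passed this threshold or had an unadjusted p under 0.05 with edgeR or DESeq2, whereas 17.2% of all genes tested had one in edgeR. Over all genes tested, the same threshold was passed upward by 1.94% and downward by 1.34%. In whole tumors, fewer cells of a type and less RNA per cell cannot be told apart. The median log2 fold change of the 9 genes was 0.06, beside a median of -0.00037 for all genes tested, and 6 of the 9 were higher and 3 lower. Leaving out each tumor moved the median of the 9 from -0.069 to 0.19. In 4 of the 9 genes the values of the 3 Sora-treated tumors did not overlap those of the 3 control tumors: Met, Axl, and Tyro3 lay higher and Mertk lay lower. Among all genes tested, 10.6% lay higher without overlap and 11.6% lay lower. With DESeq2 the same pair of genes passed, Met among the 4.0% of genes that it called up-regulated and Mertk among the 3.71% that it called down-regulated.

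Because Met and Mertk moved in opposite directions, the 250 bases upstream of each transcription start are shown, on the coding strand and 5′ to 3′, from RefSeq on GRCm38.p6. The Met window lies at chr6:17463707-17463956 on the plus strand, and the Mertk window lies at chr2:128698665-128698914, also on the plus strand. Capitals mark matches, on either strand, to the motifs searched: the GC box GGGCGG, the E-box CACGTG, the AP-1 site TGANTCA, the CCAAT box, the TATA box TATAAA, and the PU.1 site GAGGAA.
Met: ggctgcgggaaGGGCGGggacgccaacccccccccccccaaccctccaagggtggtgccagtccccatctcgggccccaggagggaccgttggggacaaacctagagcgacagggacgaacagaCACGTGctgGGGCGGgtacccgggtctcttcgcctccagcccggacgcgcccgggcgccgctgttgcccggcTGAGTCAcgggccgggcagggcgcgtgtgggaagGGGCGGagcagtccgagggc
Mertk: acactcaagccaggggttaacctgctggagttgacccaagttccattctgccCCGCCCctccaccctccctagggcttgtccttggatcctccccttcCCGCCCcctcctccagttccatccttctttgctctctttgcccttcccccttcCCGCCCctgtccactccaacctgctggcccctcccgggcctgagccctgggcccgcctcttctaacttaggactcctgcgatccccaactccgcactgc
The Met window holds 3 GC boxes, 1 E-box, and 1 AP-1 match, and it has 24 CpG and 74% G or C. The Mertk window holds 3 GC boxes, all on the other strand (CCGCCC), and it has 7 CpG and 63.6% G or C. Over the 32851 upstream windows of the mouse genes in the same table, the median is 6 CpG and 52.4% G or C. A GC box is found in 32.7% of these windows, an E-box in 6.02%, an AP-1 match in 6.75%, a CCAAT box in 33.8%, a TATA box in 12.4%, and a PU.1 match in 23.3%. The matches are a description of the letters, since binding was not measured. No protein sequence was used here.

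Per length of transcript, Axl was the most abundant of the 9 genes and Mst1r the least. FPKM, the reads of a gene divided by its length and by the total of the library, averaged 96.5 for Axl, 47.4 for Gas6, 38.0 for Met, and 35.5 for Pros1 over the 6 tumors. These 4 genes lay between percentiles 88.5 and 96.2 of the genes tested. Mertk averaged 5.13 FPKM, near the middle of all genes at percentile 50.2. Tyro3 followed at 1.62, Mst1 at 1.13, Hgf at 0.826, and Mst1r at 0.429 FPKM. The ranges of Axl and Gas6 did not overlap, nor did those of Pros1 and Mertk or of Mertk and Tyro3, so those steps in the order were larger than the spread of the tumors. The ranges of the other neighboring pairs overlapped. Within single tumors, Tyro3 still lay above Mst1 and Hgf above Mst1r in 6 of 6, whereas Gas6 lay above Met in 5 of 6, Mst1 above Hgf in 5 of 6, and Met above Pros1 in 4 of 6. In FPKM over the whole tissue, Met thus stood well above its ligand Hgf, while Mst1r and Mst1 were both low. The length that the tables use for Mertk is 7378 bases, whereas the merged exons of the gene in GENCODE M21 cover 4336 bases. With the shorter length the FPKM of Mertk would be larger, and its counts would not change. Other lengths differ as well: 5043 bases in the tables against 6198 in GENCODE M21 for Tyro3, 2445 against 2262 for Mst1, and 3337 against 4088 for Pros1. The order within close pairs such as Tyro3 and Mst1, and the share of Gas6 beside Pros1 given below, therefore depend on the lengths used.

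**Figure D1:**
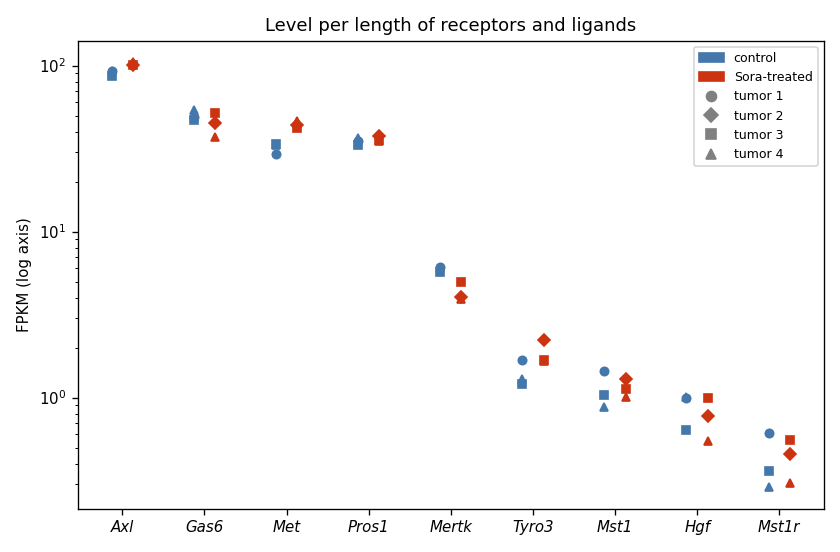
FPKM of each of the 9 genes in each tumor on a log axis, with control tumors in blue, Sora-treated tumors in red, and marker shapes for the tumor numbers; genes are ordered by their mean over the 6 tumors. The levels run from about 100 FPKM for Axl to under 1 FPKM for Mst1r, and the gap between Pros1 (mean 35.5) and Mertk (mean 5.13) separates the 4 abundant genes from the others.

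Met, the HGF receptor on chromosome 6, rose in every Sora-treated tumor. Its CPM, the reads of a gene per fixed number of reads in the library after TMM scaling, were 198, 237, and 227 in control tumors 1, 3, and 4. In Sora-treated tumors 2, 3, and 4 they were 300.4, 288, and 329. The lowest Sora-treated tumor thus lay above the highest control tumor. The control mean of 221 ± 20.4 CPM (SD, n = 3) compared with 306 ± 21.4 CPM under Sora. The log2 fold change was 0.47 with a standard error (SE) of 0.089, or 1.38-fold with a 95% interval of 1.21 to 1.59 (edgeR adjusted p = 0.022). Each library held 6352 to 10910 reads of Met, so counting error was small. The call depended on which tumors were included: leaving out 1 tumor at a time gave log2 fold changes of 0.40 to 0.52, and the adjusted p stayed under 0.05 in 2 of the 6 fits. The adjusted p was 0.118 when Sora-treated tumor 4 was left out and 0.070 when Sora-treated tumor 2 was, and it was 0.069 and 0.064 when control tumors 1 and 4 were. In the fit without Sora-treated tumor 4, 0.0306% of the 16319 genes tested passed in either direction, and none of the 9 did. An unadjusted p under 0.05 was found in 3 of the 9 and in 11.9% of all genes in that fit. Without Sora-treated tumor 3, the count rose to 7.03% of all genes, and Met and Mertk both passed.

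Mst1r encodes RON and stood at the low end. It had 51 to 93 reads per library, with 2.90, 1.81, and 1.40 CPM in the controls and 2.21, 2.68, and 1.54 CPM in the Sora-treated tumors. The groups overlapped, and the log2 fold change was 0.08 (SE, 0.34; 95% interval, -0.67 to 0.83; edgeR adjusted p = 0.94). This interval holds changes larger than that of Met in both directions, so a difference of that size in Mst1r was not detectable with these tumors.

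**Figure D2:**
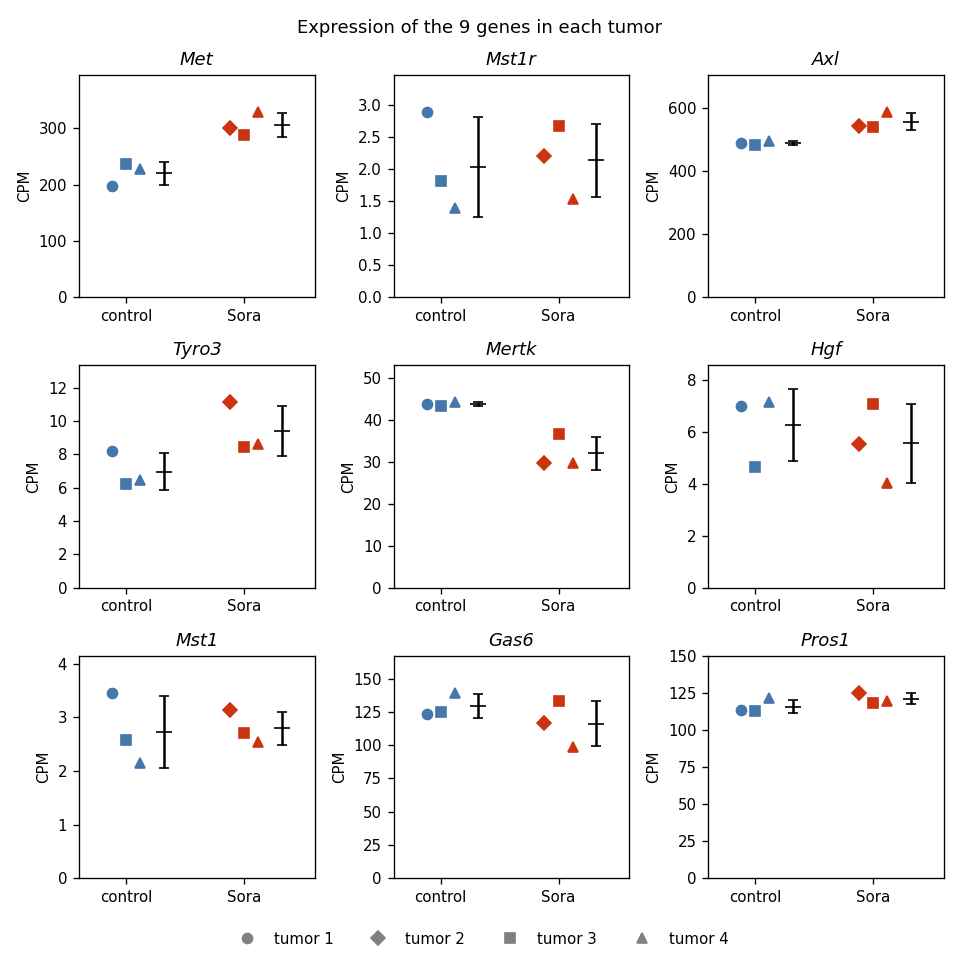
CPM (TMM scaled) of the 9 genes in each tumor, 1 panel per gene with the axis from 0, with the control group on the left and the Sora-treated group on the right of each panel; bars show mean ± SD (n = 3). For Met the Sora-treated tumors lay from 288 to 329 CPM, above controls at 198 to 237, and for Mertk they lay from 29.7 to 36.5 CPM, below controls at 43.1 to 44.1.

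Among the TAM receptors, Mertk fell while Axl and Tyro3 were higher in every Sora-treated tumor without passing the threshold. Mertk, on chromosome 2, stood at 43.7, 43.1, and 44.1 CPM in the controls and at 29.8, 36.5, and 29.7 CPM in Sora-treated tumors 2, 3, and 4. The controls lay close together, and Sora-treated tumor 3 lay between them and the other treated tumors. The means were 43.7 ± 0.499 CPM in controls and 31.99 ± 3.92 CPM under Sora. In log2 terms the change was -0.45 (SE, 0.094), or 0.733-fold with a 95% interval of 0.635 to 0.846 (edgeR adjusted p = 0.031). Leaving out 1 tumor at a time gave log2 fold changes of -0.56 to -0.40, and the adjusted p stayed under 0.05 in 1 of the 6 fits, the one without Sora-treated tumor 3. It was 0.156 when Sora-treated tumor 4 was left out, 0.120 when Sora-treated tumor 2 was, and 0.066 to 0.088 when a control was.

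Axl, on chromosome 7, stood at 490.5, 483, and 497 CPM in the controls and at 545, 541, and 589 CPM in the Sora-treated tumors. All 3 treated tumors lay above all 3 controls, but the step was small, from 490.1 ± 6.88 to 558 ± 26.5 CPM. The log2 fold change was 0.19 (SE, 0.074; 95% interval, 0.025 to 0.35; edgeR adjusted p = 0.21), and it passed in none of 19 alternative settings. Tyro3, on chromosome 2, had 8.22, 6.20, and 6.47 CPM in the controls and 11.1, 8.43, and 8.63 CPM in the Sora-treated tumors. The lowest treated tumor exceeded control tumor 1 by little, and in FPKM, which lack the TMM scaling, the groups overlapped. Its log2 fold change of 0.43 was close in size to that of Met but had a larger error (SE, 0.17; 95% interval, 0.054 to 0.81; edgeR adjusted p = 0.22).

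The share of Axl among the TAM receptors was higher in each Sora-treated tumor, and that of Mertk was lower. The shares are given without a test. Axl held 92.3%, 92.6%, and 92.6% of the summed FPKM of the 3 TAM receptors in the controls and 94.1%, 93.8%, and 94.97% in the Sora-treated tumors. The share of Mertk was 6.05%, 6.09%, and 6.06% in the controls and 3.78%, 4.66%, and 3.53% in the treated tumors, with no overlap. These shares, and the ratio of Axl to Mertk, use the table's length of Mertk, and with the shorter GENCODE length the share of Mertk would be larger in every tumor, and the ratio would be smaller by 1 common factor that leaves its log2 difference between the groups unchanged. The share of Tyro3 ranged from 1.28% to 2.07% and overlapped between the groups. The ratio of Axl to Mertk FPKM was 15.3, 15.2, and 15.3 in the controls and 24.9, 20.1, and 26.9 in the Sora-treated tumors. This difference of 0.64 on the log2 scale had p = 0.1 in a two-sided exact permutation test, the smallest p that 3 tumors against 3 can give, and 0.23 after adjustment over 7 such measures. The ratio of Tyro3 to Axl overlapped between the groups (exact permutation p = 0.3).

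**Figure D3:**
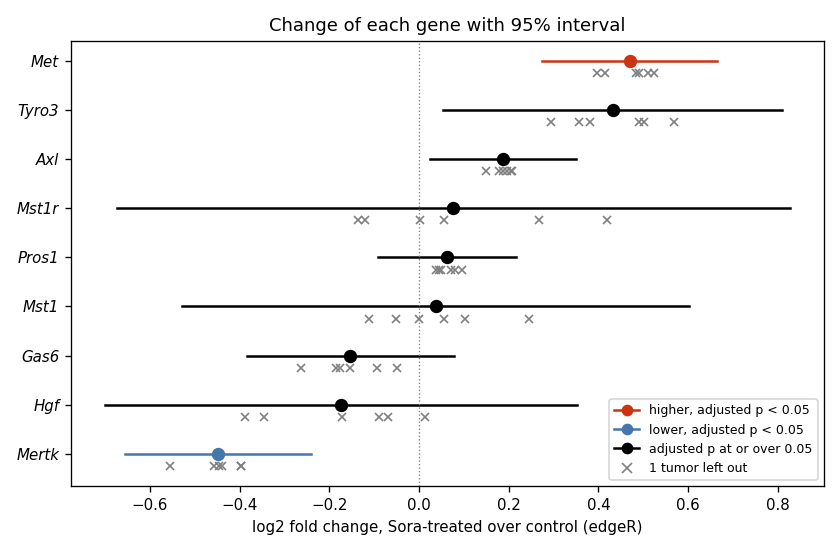
Log2 fold change of each of the 9 genes (Sora-treated over control, edgeR) with its 95% interval; red marks adjusted p under 0.05 and higher, blue marks adjusted p under 0.05 and lower, and crosses give the fits that leave out 1 tumor each. The crosses of Met (0.40 to 0.52) and Mertk (-0.56 to -0.40) stay on 1 side of 0. So do those of Axl, Tyro3, Gas6, and Pros1, which were not called. Those of Mst1r, Mst1, and Hgf fall on both sides.

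The ligands did not change detectably. Hgf, on chromosome 5, had 7.01, 4.67, and 7.15 CPM in the controls and 5.56, 7.09, and 4.05 CPM in the Sora-treated tumors, from 134 to 261 reads. The groups overlapped, and the log2 fold change was -0.17 (SE, 0.24; 95% interval, -0.70 to 0.35; edgeR adjusted p = 0.77). The ratio of Hgf to Met FPKM was 0.0340, 0.0189, and 0.0302 in the controls and 0.0178, 0.0237, and 0.0118 in the treated tumors (exact permutation p = 0.2). Mst1, on chromosome 9 like Mst1r, had 3.46, 2.58, and 2.14 CPM in the controls and 3.13, 2.71, and 2.54 CPM in the treated tumors, from 78 to 111 reads. Its log2 fold change was 0.04 (SE, 0.26; 95% interval, -0.53 to 0.60; edgeR adjusted p = 0.97), and Mst1 and Mst1r kept a ratio of 2.02 to 3.29 in FPKM with overlapping groups (exact permutation p = 0.8). The interval of Mst1 leaves room for a change as large as that of Met in both directions, and the interval of Hgf leaves room for such a decrease but not for such an increase.

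Gas6 and Pros1, the TAM ligands, were abundant and had narrower intervals than Hgf and Mst1. The interval of Gas6 was still wider than that of Met or Mertk. Gas6, on chromosome 8, had 123, 125, and 140 CPM in the controls and 117, 133, and 99.0 CPM in the Sora-treated tumors. The log2 fold change was -0.15 (SE, 0.10; 95% interval, -0.38 to 0.078; edgeR adjusted p = 0.51), with Sora-treated tumor 4 the lowest of all 6. Pros1, on chromosome 16, had 113, 113, and 121 CPM in the controls and 125, 118, and 120 CPM in the treated tumors. With a log2 fold change of 0.06 (SE, 0.070; 95% interval, -0.091 to 0.22; edgeR adjusted p = 0.71), it varied least of the 9 genes. Gas6 made up 58.4%, 58.7%, and 59.7% of the summed FPKM of both TAM ligands in the controls and 54.6%, 59.2%, and 51.5% in the treated tumors, so the groups overlapped (exact permutation p = 0.3 for the ratio). In GENCODE M21, exons of Hgf share 484 bases with Gm43489 on the same strand, those of Mst1 share 195 bases with Rnf123 on the opposite strand, and those of Gas6 share 34 bases with Tmem255b on the opposite strand. Whether the authors counted by strand is not given in the sources used here, so reads in these stretches cannot be assigned.

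The proteases that cut pro-HGF and pro-MSP, and their inhibitors, changed in both directions. Of the 14 genes listed, 11 were tested, 2 were up-regulated, and 1 was down-regulated, with a median log2 fold change of -0.01. Leaving out each tumor moved this median from -0.057 to 0.16, with both signs. Tmprss2, a membrane serine protease, fell from 97.6 ± 7.77 to 52.0 ± 13.2 CPM (log2 fold change, -0.91; SE, 0.15; edgeR adjusted p = 0.014), the most of the 3. Plat, tissue plasminogen activator, rose from 248 ± 27.6 to 349 ± 46.3 CPM (log2 fold change, 0.49; adjusted p = 0.039). Hgfac, the HGF activator, rose from 48.1 ± 3.49 to 60.3 ± 0.963 CPM (log2 fold change, 0.33; adjusted p = 0.045). Neither of the inhibitors Spint1 and Spint2, with log2 fold changes of 0.14 and -0.11, passed. Cleavage of the ligands was not measured.

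Among 14 partners of MET and RON at the membrane, 3 were up-regulated and none was down-regulated, 8 were higher and 6 lower, and the median log2 fold change was 0.06. Plxnb1, the semaphorin receptor plexin B1 that associates with MET and RON, rose from 131 ± 5.33 to 201 ± 14.8 CPM (log2 fold change, 0.62; SE, 0.078; edgeR adjusted p = 0.0084). Itga6 rose from 420.5 ± 21.9 to 663 ± 97.5 CPM (log2 fold change, 0.66; adjusted p = 0.014), and Itgb4 rose from 128 ± 11.1 to 168 ± 4.66 CPM (log2 fold change, 0.39; adjusted p = 0.030). These encode the chains of integrin α6β4, the laminin receptor of epithelial cells, which binds MET. Sema4d, the ligand of plexin B1, had a log2 fold change of -0.26 (adjusted p = 0.23), and Cd44, a co-receptor of MET, one of 0.17 (adjusted p = 0.29). Both were chosen for their roles after their values were seen. With DESeq2, 4 of the 14 were up-regulated.

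The shared adaptors and signal enzymes downstream did not pass in either direction. All 24 listed were tested, 15 were higher and 9 lower, the median log2 fold change was 0.04, and 1 had an unadjusted p under 0.05 in edgeR, as in DESeq2, which also called none. The smallest p values belonged to Pik3r2, a regulatory subunit of PI3K (log2 fold change, 0.18; adjusted p = 0.22), and Plcg1, phospholipase C γ1 (0.16; adjusted p = 0.37). Genes of receptor turnover, which hold ubiquitin ligases, phosphatases, and sheddases, gave 0 calls among the 16 tested with edgeR, 5 with an unadjusted p under 0.05, and, with DESeq2, 2 called higher and 1 called lower. When Sora-treated tumor 4 was left out, DESeq2 called none of them. Ptprj, a phosphatase that acts on MET, had a log2 fold change of -0.29 (adjusted p = 0.060), and Socs3, an inhibitor of cytokine receptors, one of 0.45 (adjusted p = 0.080). Vitamin K dependent carboxylation, which GAS6 and PROS1 need to bind phosphatidylserine, had 0 of 5 genes called and none with an unadjusted p under 0.05 in edgeR. DESeq2 also called none and had 1 at an unadjusted p under 0.05. Ggcx, the carboxylase, had a log2 fold change of -0.18 (adjusted p = 0.49), and Calu, its inhibitor, one of 0.18 (adjusted p = 0.31).

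Genes that act with the TAM receptors in the uptake of apoptotic cells had 1 call. Of 25 listed, 21 were tested, 8 were higher and 13 lower, where 49.9% of all genes tested were higher. The median log2 fold change was -0.12, and 9 had an unadjusted p under 0.05. The 1 gene called was Cd300lf, a phosphatidylserine-binding receptor of myeloid cells, which rose from 22.8 ± 0.815 to 33.8 ± 4.48 CPM (log2 fold change, 0.57; edgeR adjusted p = 0.021), opposite to Mertk. With DESeq2, 2 were up-regulated and 5 were down-regulated. When Sora-treated tumor 4 was left out, DESeq2 called 1 up-regulated and 0 down-regulated. C1qa, C1qb, and C1qc are shared by this list and the macrophage markers.

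Target genes of MAPK signaling were the list with the most calls among the pathway lists. Of 17 genes tested, 6 were up-regulated and none was down-regulated, 13 were higher and 4 lower, and the median log2 fold change was 0.36. Spry4, a feedback inhibitor of receptor kinase signaling, rose from 30.2 ± 3.07 to 54.8 ± 11.3 CPM (log2 fold change, 0.86; edgeR adjusted p = 0.015). Dusp5 and Dusp4, phosphatases of ERK, rose with log2 fold changes of 0.79 (adjusted p = 0.023) and 0.53 (adjusted p = 0.031), and Epha2, an ephrin receptor, rose by 0.53 (adjusted p = 0.018). With DESeq2, 9 of the 17 were up-regulated and 2 were down-regulated. The 2 were Spry1 (edgeR log2 fold change of -0.51, DESeq2 adjusted p = 0.020) and Etv5 (edgeR log2 fold change of -0.26, DESeq2 adjusted p = 0.045). Many receptors feed this pathway, and the part of MET or the TAM receptors in these values was not tested. Without Sora-treated tumor 4, no gene of any of these 7 lists passed in edgeR, while 11 of the MAPK output genes and 5 of the MET and RON partners had an unadjusted p under 0.05, beside 11.9% of all genes in that fit. DESeq2 on the 5 deposited count columns, which also lack this tumor, called 5 and 3 of them, all up-regulated, as well as Met up-regulated and Mertk down-regulated. Over all genes it called 1.65% up-regulated and 1.35% down-regulated. Of the other pathway lists, it called 1 up-regulated and 1 down-regulated among the proteases and inhibitors, 1 up-regulated in apoptotic cell uptake, and none elsewhere.

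**Figure D4:**
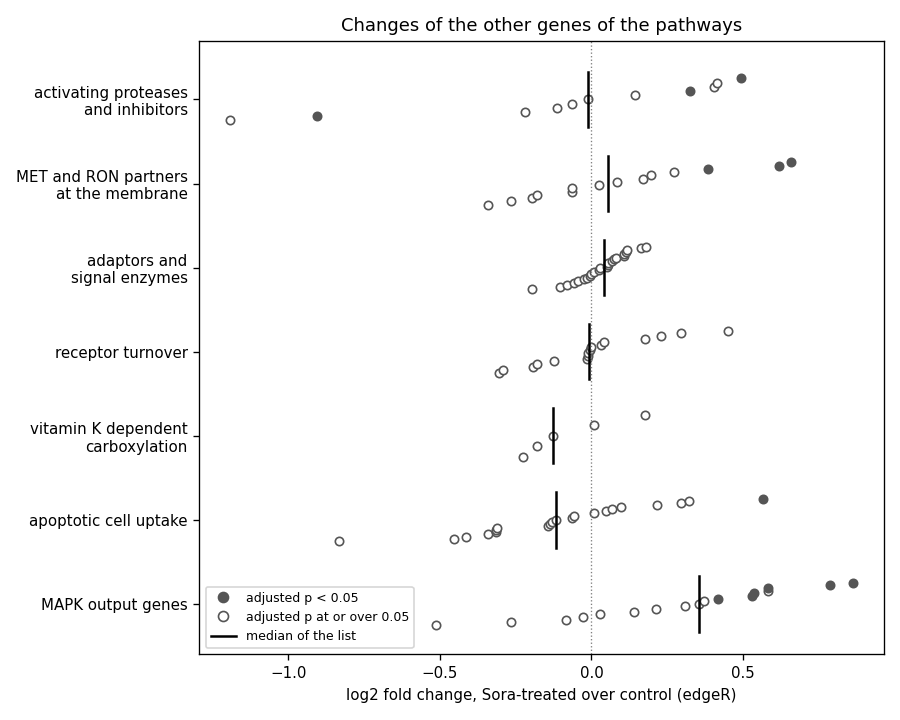
Log2 fold change (Sora-treated over control, edgeR) of every tested gene in the 7 pathway lists, 1 circle per gene; filled circles mark adjusted p under 0.05, and vertical bars mark the median of each list. Filled circles on the right hold 6 MAPK output genes, 3 MET and RON partners, 2 proteases, and Cd300lf, and Tmprss2 at -0.91 is the filled circle on the left.

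For comparison, the EGF family of ligands and ERBB receptors had 3 of 12 tested genes up-regulated and none down-regulated, with a median log2 fold change of 0.32. Areg, Hbegf, and Btc, ligands of the EGF receptor, rose with log2 fold changes of 1.80, 1.04, and 1.16 (edgeR adjusted p = 0.0087, 0.013, and 0.019). DESeq2 called 5 of the family, all higher, and edgeR called none of it without Sora-treated tumor 4 (adjusted p of 0.058, 0.070, and 0.104 for Areg, Hbegf, and Btc; 5 genes with an unadjusted p under 0.05). The FGF ligands and receptors had 0 of 13 tested genes called by edgeR, 2 with an unadjusted p under 0.05, and 1 called by DESeq2. The difference between these families and the 9 genes was not tested.

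Macrophages, the cells known for MERTK, were followed by 15 markers. The 15 macrophage markers, none of which was at 0 in a tumor, summed to 3288 to 3666 CPM in the controls and 2760 to 3266 CPM in the Sora-treated tumors, without overlap. Of the 15, 14 were lower, with a median log2 fold change of -0.17, and none passed in edgeR, while 7 had an unadjusted p under 0.05 (17.2% of all genes did) and DESeq2 called 4 lower. On the 5 deposited count columns, which lack Sora-treated tumor 4, DESeq2 called none of the 15. Mertk fell by 0.45 on the log2 scale, more than each of the 15 markers. Set against the mean log2(CPM + 1) of these markers, Mertk stood at -1.39, -1.47, and -1.41 in the controls and at -1.79, -1.56, and -1.73 in the treated tumors. That difference of -0.27 on the log2 scale had an exact permutation p of 0.1, the smallest possible, and 0.23 after adjustment. This measure and the next were added after the data were seen.

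Hepatoma markers, which stand for the injected cells, moved in both directions. Of 13 tested, 2 rose and 2 fell: Hnf4a (log2 fold change, 0.80; edgeR adjusted p = 0.013) and Apoa1 (1.03; 0.047) were higher, and Ttr (-2.15; 0.0055) and Alb (-0.55; 0.041) were lower. DESeq2 called 2 higher and 2 lower but not Apoa1 (adjusted p = 0.063), and without Sora-treated tumor 4 edgeR called Ttr alone (adjusted p = 0.046). Their summed level of 4962 to 6449 CPM in the controls overlapped with 5033 to 5589 CPM in the treated tumors, and Alb and Afp, the defining markers, were present in every tumor. Set against the mean log2(CPM + 1) of these markers, Met stood at 1.72, 1.82, and 1.75 in the controls and at 2.15, 2.09, and 2.18 in the treated tumors, a difference of 0.38 on the log2 scale (exact permutation p = 0.1; 0.23 adjusted). Keratinocyte and skin markers were higher in 12 of 12 genes, with a median log2 fold change of 0.45 and 0 calls by edgeR or DESeq2 and 1 unadjusted p under 0.05. Their sums overlapped, at 360 to 1196 CPM in the controls and 762 to 1095 CPM in the treated tumors. Keratinocytes also express MET and integrin α6β4, and the part of skin in the values of Met, Itga6, and Itgb4 was not tested.

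Markers of fibroblasts, stromal cells known to secrete HGF and GAS6, summed to 8560 to 8765 CPM in the controls and 5920 to 7437 CPM in the Sora-treated tumors, without overlap. Of 11, 9 were lower, with a median log2 fold change of -0.22, and Postn, a matrix protein, fell (log2 fold change, -0.68; edgeR adjusted p = 0.017). DESeq2 called 5 of the 11 lower. The log2 fold changes of Hgf (-0.17) and Gas6 (-0.15) lay near this median in all 6 tumors together. Without Sora-treated tumor 4 they were 0.012 and -0.048, and the median was -0.14. Leaving out each of the 6 tumors in turn moved Hgf from -0.39 to 0.012 and Gas6 from -0.26 to -0.048, and their relation to the fibroblast markers was not tested. Of the other marker lists, T cells had 10 of 10 genes lower and 1 called (Cd8b1; log2 fold change, -0.56; adjusted p = 0.018), neutrophils had 6 of 6 higher and 1 called (S100a9; 1.21; 0.042), and red blood cells had 5 of 5 lower and 1 called (Hba-a1; -1.17; 0.031). DESeq2 called 3 T cell and 3 red blood cell markers lower. Of the neutrophil markers it called Csf3r higher (log2 fold change, 0.50; DESeq2 adjusted p = 0.0069; chosen after its values were seen) but not S100a9 (adjusted p = 0.053). Without Sora-treated tumor 4, edgeR called none of these lists or of the fibroblast markers, with an adjusted p of 0.137 for S100a9, 0.089 for Cd8b1, 0.146 for Hba-a1, and 0.097 for Postn. DESeq2 on the 5 deposited count columns, which lack the same tumor, called 2 T cell and 4 fibroblast markers lower. It called no red blood cell or neutrophil marker there. Dendritic cells, NK cells, pericytes, endothelial cells, skeletal muscle, platelets, and adipocytes had no call with edgeR, 0 to 4 genes each with an unadjusted p under 0.05, and at most 1 gene each called by DESeq2. Among these, 6 of 6 adipocyte markers and 8 of 8 skeletal muscle markers were higher, with median log2 fold changes of 0.65 and 0.17, while their sums overlapped between the groups. The platelet marker Gp9 was at 0 in every tumor.

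**Figure D5:**
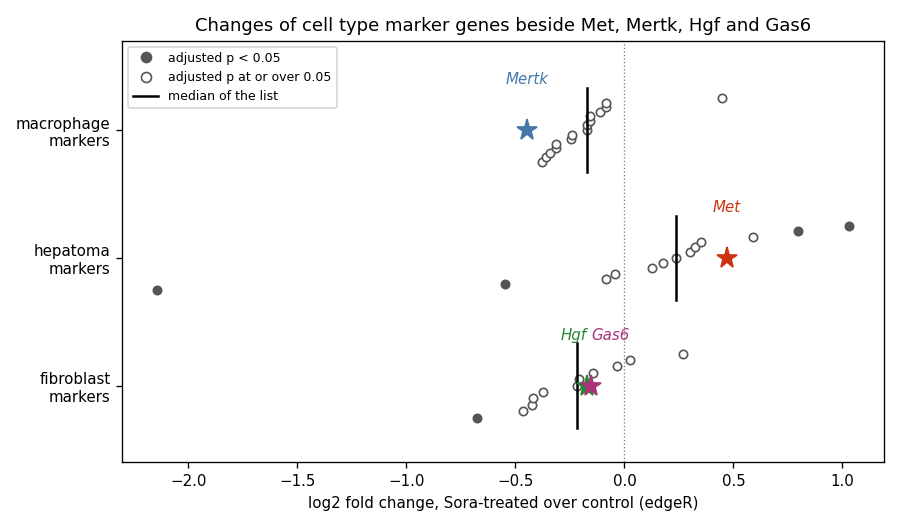
Log2 fold change (Sora-treated over control, edgeR) of each tested macrophage, hepatoma, and fibroblast marker, 1 circle per gene; filled circles mark adjusted p under 0.05, vertical bars mark the list medians, and stars show Mertk, Met, Hgf, and Gas6 beside the list of the cell type named for them. Mertk (-0.45) lies left of all 15 macrophage markers, Met (0.47) lies within the spread of the hepatoma markers, and Hgf (-0.17) and Gas6 (-0.15) lie near the fibroblast median of -0.22. Without Sora-treated tumor 4 they were 0.012 and -0.048, beside a median of -0.14.

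The genes whose profiles over the 6 tumors were closest to those of Met and Mertk were found among 10083 genes with a mean of at least 10 CPM. Likeness was the root mean square difference of log2 CPM after each gene was centered on its own mean. Met was closest to Ero1a, an oxidase of the endoplasmic reticulum (0.029), Appl2, an endosomal adaptor (0.030), and Pkn3, a protein kinase (0.032). Mertk was closest to Rcbtb2 (0.026), Slc17a5, a lysosomal sialic acid transporter (0.034), and Cd48, a surface protein of hematopoietic cells (0.036). Axl was closest to Bloc1s2, Gm46220, and Csnk2a2 (0.019 to 0.022). Gas6 was closest to Phf21a (0.013), Col6a3, a collagen of stromal matrix (0.030), and Ncoa1 (0.035), and Pros1 to Nfx1, Foxp4, and Mia3 (0.0078 to 0.014). The low genes had looser neighbors: Tyro3 was closest to Atg9b, Gja1, and Dennd2c (0.082 to 0.091), Hgf to Siglec1, Uvssa, and Chst2 (0.089 to 0.113), Mst1 to Chl1, Pkp3, and Dclk1 (0.071 to 0.104), and Mst1r to Scel, Acpp, and Hr (0.155 to 0.199). Over 6 points drawn from the same libraries these are descriptions without a test.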

How the data were processed

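RNA from 3 control and 3 Sora-treated tumors was sequenced by the authors (TRIzol RNA, VAHTS Universal V5 kit, BGISEQ-500). They deposited raw counts, the whole numbers of reads per gene, and FPKM, the counts divided by gene length and library total. The methods name Bowtie2 and GRCm38, whereas the submitters' processing notes name fastp, HISAT2, HTSeq, R 3.2.0, DESeq2, and GRCm39 without roles. Annotation and strand use are not given in the sources used here. Counts were at hand for 5 tumors and FPKM for 6. For Sora-treated tumor 4, whole counts were worked back from FPKM and table lengths, with the library total (34120168) inferred as the one that makes the values whole, and 342 genes without a length (512 reads, 0.0015%) stayed at 0. For each of the other 5 tumors the same steps gave back every deposited count of a gene with a length, and 100% of recovered values lay within 0.001 of a whole number.

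Totals ranged from 31073830 to 36205814 reads. The 16513 genes that reached 10 counts in 3 or more tumors were tested with edgeR 4.0.16 in R 4.3.3 (TMM, glmQLFit, glmQLFTest), with Benjamini-Hochberg adjustment over all genes and a threshold of 0.05; the biological coefficient of variation was 0.132. The scripts were tested on simulated data. CPM are TMM scaled. Ratios used FPKM and two-sided exact permutation tests over 20 labelings. Sequences are from RefSeq, in which all 9 genes were matched by symbol, and exon overlaps are from GENCODE M21. Intervals for fold changes cover 95%.

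The 9 genes and the lists of other genes were chosen with earlier results of these data known. All 9 were named; of each pathway list, up to 4 genes with an adjusted p under 0.05, smallest p first, or else the 2 smallest p; of each marker list, up to 3 genes with an adjusted p under 0.05. Apoa1, Spint1, Spint2, Sema4d, Cd44, Spry1, Etv5, and Csf3r were named in addition after their values were seen. Beside each of the 9 stand the 3 most similar genes. Alternatives were DESeq2 1.42.0, limma 3.58.1 (voom), other scalings and filters, robust=TRUE, a replicate block, leaving out each tumor, log2(FPKM + 1) and log2(FPKM + 0.1) with limma, and, added after the data were seen, DESeq2 on the 5 deposited count columns.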

Additional observations from a re-analysis of the deposited data

How the results depend on the processing

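The number of genes called depended on the processing. Against 321 up-regulated and 222 down-regulated genes (edgeR), DESeq2 called 619 and 575, edgeR without a filter 570 and 577, limma on log2(FPKM + 1) with a filter 136 and 62, and limma on log2(FPKM + 0.1) with it 21 and 17. On log2(FPKM + 1) over all genes limma called 0 and 0, with 1604 and 1649 at an unadjusted p under 0.05. Leaving out each tumor gave 4 to 574 and 1 to 571, the lowest without Sora-treated tumor 4 and the highest without Sora-treated tumor 3.

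Tumors of both groups share the numbers 3 and 4 in the labels. The correlations of their deviations from the group means were -0.033 and -0.074. These show no shared deviation, but correlations of single tumors cannot exclude that the numbers mark pairs, which the labels do not state. With a replicate block 80 genes were up-regulated and 45 down-regulated, 0 of the 9 genes were called in either direction (2 at an unadjusted p under 0.05), the median of the 9 was 0.16 in place of 0.06, and the adjusted p was 0.24 for Met (log2 fold change, 0.41) and 0.27 for Mertk (-0.41). Of all 16513 genes tested, 870 higher and 677 lower had an unadjusted p under 0.05 with the block.

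The count of the 9 up-regulated, 1 (Met), was 0 with limma on log2(FPKM + 0.1) with the filter and on log2(FPKM + 1) over all genes, and 0 to 1 when each tumor was left out. The count down-regulated, 1 (Mertk), was 0 in all 3 FPKM settings and 0 to 1 when each tumor was left out. The filter of the FPKM settings removed Mst1r and Hgf, and 4 of the other 7 had an unadjusted p under 0.05. Of all 12305 genes tested with the filter, 1094 higher and 1182 lower had one on log2(FPKM + 1), and 1034 and 1167 on log2(FPKM + 0.1). On log2(FPKM + 1) over all genes 3 of the 9 had one, beside 1604 higher and 1649 lower of 26167. The direction of Met and Mertk was the same in all 19 alternatives, as was that of Axl, Tyro3, Gas6, and Pros1. Met and Mertk were called in 12 and 10. DESeq2 on the 5 deposited count columns called both. Leaving out each tumor moved the median of the 9 from -0.069 to 0.19 and the log2 fold change of Hgf from -0.39 to 0.012, of Mst1r from -0.14 to 0.42, and of Mst1 from -0.11 to 0.24, with both signs. DESeq2 on the 5 deposited columns gave 0.0095 for Hgf. The cause of these changes was not tested beyond the tumors named. Of 167 values of the 9 genes across settings, 145 kept direction and call, 16 lost the call, and 6 changed sign. Of 133 list medians, 7 moved by more than the spread between tumors, and 6 of these were of the proteases and inhibitors. None of 47 ratio values did. Most of them came from leaving out 1 of 3 tumors, which cannot move a ratio difference by that spread, so nothing is concluded from them.

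Limits were the 3 tumors per group, the 51 to 261 reads per library of Mst1r, Mst1, and Hgf, whole tumor tissue without cell counts, and 1 tumor whose counts were recovered from FPKM.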
